A study of Drosophila melanogaster with 4 samples.

Results

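Of 13866 loci measured in 4 lines of Drosophila melanogaster, 20 carried the name of a nuclear gene for the mitochondrial respiratory chain, for cytochrome c or for ATP synthase. They were picked out by gene symbol, and the set of genes was proposed with earlier results of these data known. There were 3 loci for complex I, 3 for complex II, 2 for complex III, 2 for cytochrome c, 3 for complex IV and 7 for ATP synthase, which is also called complex V. Of the 13866 loci, 0 had a mitochondrial gene name starting with mt: and 0 lay on the mitochondrial chromosome. Genes encoded by the mitochondrial genome could therefore not be set against the nuclear loci. The RNA came from pharate adults, fully formed flies that have not yet left the puparium, raised at 24 °C. The lines are called tg1, tg2, hom and CAG after their names LU.10580.tg1, LU.10580.tg2, LU.10580hom and LU.10580/CAG. The sources used here do not give alleles, transgenes, sex or exact age, and the CAG values are headed het in the deposited file. Each line had 1 library, so no difference has a replicate check and no test was run.

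The respiratory chain passes electrons from NADH, at complex I, and from succinate, at complex II, through complex III and the small carrier cytochrome c to oxygen at complex IV. Complexes I, III and IV pump protons across the inner mitochondrial membrane, and ATP synthase lets them flow back to make ATP. Most subunits are encoded in the nucleus, while a core of complexes I, III, IV and ATP synthase is encoded in the mitochondrial DNA. Insect flight muscle is packed with mitochondria, and it forms during metamorphosis.

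Levels are FPKM, fragments normalised for transcript length and library size, as deposited by the authors. Because of the length scaling, levels of different genes can be compared. Differences are given on the log2(FPKM + 1) scale, over the 11689 loci that averaged 1 FPKM or more, and all 20 members were among them. The median FPKM over all loci was 8.05 in tg1, 8.38 in tg2, 8.14 in hom and 8.48 in CAG. The libraries differed more in their most abundant locus, which held 17.5% of the summed FPKM in tg1, 14.9% in tg2, 30.4% in hom and 30.2% in CAG. The tested loci summed to 2.69e+06 FPKM in tg1, 2.81e+06 in tg2, 3.97e+06 in hom and 3.57e+06 in CAG. This also sets the tg libraries apart from hom and CAG. Its part in the members' differences was not tested, beyond the other scalings given below. Read numbers of the libraries are not given. Steps between the lowest values gave a depth relative to CAG of 1.11 for tg1, 1.17 for tg2 and 0.774 for hom. These were the most frequent ratios among 271 low loci. Within 3% of them lay 27 loci for tg1, 45 for tg2 and 52 for hom, so the depths are rough. Adult tissue was present in every library. The major rhodopsin gene ninaE had 826 FPKM in tg1, 962 in tg2, 747 in hom and 919 in CAG, and the flight muscle actin gene Act88F had 6336 FPKM in tg1, 6415 in tg2, 5162 in hom and 5719 in CAG.

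Respiratory chain and ATP synthase transcripts were among the most abundant of these animals, and most of them were highest in the 2 tg libraries. Every member had a mean of at least 100 FPKM, a level reached by 938 of the 13866 loci. At 15 of the 20 members tg1 and tg2 both lay above both hom and CAG. This order was seen at 18.3% of all tested loci and at 24.1% of those of at least 100 FPKM. At 0 members tg1 and tg2 both lay below hom and CAG. The shares for that order were 20.4% of all tested loci and 17.6% of those of at least 100 FPKM. The differences were small, with median folds of 1.13 for tg1 over hom, 1.19 for tg2 over hom, 1.08 for tg1 over CAG and 1.13 for tg2 over CAG. In whole animals, fewer cells of a type and less RNA per cell cannot be told apart. The members' FPKM summed to 19626 in tg1, 20049 in tg2, 16528 in hom and 17545 in CAG.

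**Figure D1:**
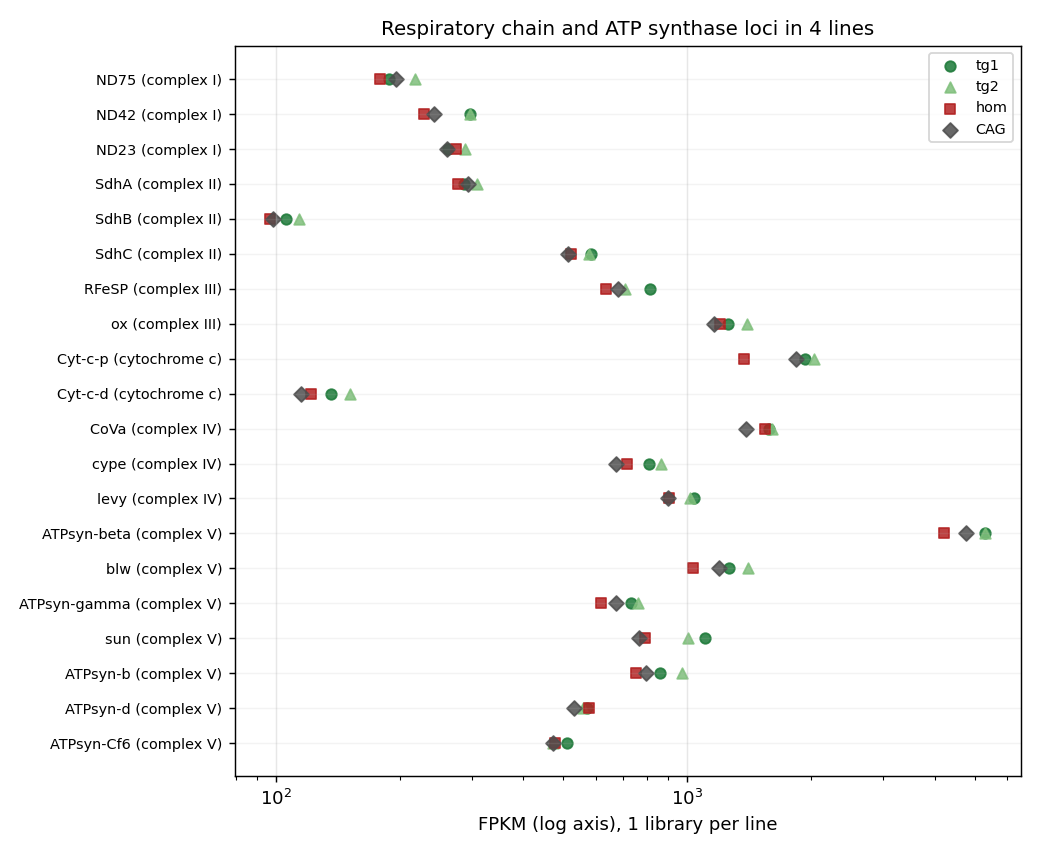
FPKM (log axis) of the 20 members in the tg1, tg2, hom and CAG libraries, 1 point per library, ordered by complex. tg1 and tg2 lie to the right of hom and CAG at 15 members, and hom stands apart from the other libraries at Cyt-c-p with 1375 FPKM.

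Complex I, the NADH dehydrogenase that takes in most electrons, was represented by 3 members of moderate level. ND75, an iron-sulfur subunit at X:8142684-8145699, had 189 FPKM in tg1, 218 in tg2, 179 in hom and 196 in CAG. ND42, an accessory subunit at 3R:17851682-17855115, had 296 FPKM in tg1, 297 in tg2, 229 in hom and 243 in CAG. ND42 was the complex I member with the clearest separation, at nearly the same level in both tg libraries and lower in hom and CAG. ND23, another iron-sulfur subunit at 3R:11661770-11662819, had 262 FPKM in tg1, 288 in tg2, 274 in hom and 261 in CAG, and here tg1 lay between CAG and hom. All coordinates are those of the deposited loci on the genome build dm3, counted from 1. Of the 20 members 7 lie on 3R, 5 on 2R, 4 on 2L, 2 on X, 1 on 3L and 1 on chromosome 4, and 12 are listed with a span that other loci share, so that overlapping genes may share fragments.

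Succinate dehydrogenase, complex II, links the chain to the citrate cycle and is encoded wholly in the nucleus. SdhA, the flavoprotein that oxidises succinate at 2R:15277633-15283477, had 286 FPKM in tg1, 308 in tg2, 277 in hom and 293 in CAG. SdhB, the iron-sulfur subunit at 2R:2695117-2697252, had 106 FPKM in tg1, 114 in tg2, 97.1 in hom and 98.6 in CAG and was the least abundant member. SdhC, a membrane anchor at 3R:7034857-7035761, had 583 FPKM in tg1, 576 in tg2, 521 in hom and 512 in CAG. The tg libraries both exceeded hom and CAG at SdhB and SdhC, while at SdhA tg1 lay below CAG. SdhC stood 5.06-fold to 5.50-fold above SdhB in the 4 libraries, and SdhA 2.70-fold to 2.97-fold above it. The order of these 3 subunits was the same in each library.

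Complex III, the cytochrome bc1 complex, had 2 members. RFeSP, the Rieske iron-sulfur protein at 2L:1612686-1614182, had 813 FPKM in tg1, 704 in tg2, 635 in hom and 678 in CAG. ox, a small subunit of the complex at 2R:8592679-8645028, had 1259 FPKM in tg1, 1400.2 in tg2, 1203 in hom and 1165 in CAG. Both tg libraries were higher than hom and CAG at both genes, but tg1 was the highest library at RFeSP and tg2 at ox. The difference between tg1 and tg2 at RFeSP, 0.21, was the most positive among the members.

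Cytochrome c is encoded by 2 genes, and they differed in which library was low. Cyt-c-p, the general form, had 1935 FPKM in tg1, 2036 in tg2, 1375 in hom and 1835 in CAG. Its coefficient of variation over the 4 lines was 16.3%. hom stood below all other libraries at Cyt-c-p, with a difference of −0.42 from CAG, the most negative difference of any member in that pair. Cyt-c-d, the form known from caspase activation during sperm differentiation, had 136 FPKM in tg1, 152 in tg2, 122 in hom and 115 in CAG, and here CAG was the lowest. Cyt-c-p stood 14.2-fold above Cyt-c-d in tg1, 13.4-fold in tg2, 11.3-fold in hom and 16.0-fold in CAG. Both genes are listed with the span 2L:16680046-16729636, which 6 other loci share, so the split of fragments within it is uncertain.

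Cytochrome c oxidase, complex IV, passes the electrons to oxygen and had 3 members, all lowest in CAG. CoVa (COX5A), at 3R:7640928-7646021, had 1584 FPKM in tg1, 1611 in tg2, 1544 in hom and 1392 in CAG. The 3 upper libraries were close together at CoVa, and hom exceeded CAG by 0.15, the most positive difference between hom and CAG among the members. cype, a small subunit at 2L:5327241-5328870, had 809 FPKM in tg1, 864 in tg2, 714 in hom and 673 in CAG. levy, a subunit whose loss causes paralysis and neurodegeneration in flies at 2R:19435763-19442241, had 1039 FPKM in tg1, 1014 in tg2, 904 in hom and 900.2 in CAG. At cype and levy both tg libraries were above both hom and CAG, and hom and CAG were close to each other at levy.

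ATP synthase had 7 members, and its catalytic subunit was by far the most abundant locus of the set. ATPsyn-beta, on chromosome 4 at 4:1050337-1074619, had 5287 FPKM in tg1, 5291 in tg2, 4203 in hom and 4755 in CAG. It ranked 5 among 11695 protein-coding loci in tg1, tg2 and CAG and 6 in hom. The 2 tg values nearly coincided, CAG lay below them and hom was the lowest. blw, the alpha subunit that alternates with beta in the catalytic ring at 2R:18686561-18689685, had 1264 FPKM in tg1, 1406 in tg2, 1035 in hom and 1197 in CAG. ATPsyn-beta stood 4.18-fold above blw in tg1, 3.76-fold in tg2, 4.06-fold in hom and 3.97-fold in CAG. The loci CG11076 and CaMKII are listed with the same span as ATPsyn-beta.

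The stalk subunits of ATP synthase did not all keep this order. ATPsyn-gamma, the rotating central stalk at 3R:25573426-25574858, had 730.4 FPKM in tg1, 761 in tg2, 618 in hom and 671 in CAG. sun, the epsilon subunit of the same stalk at X:15738492-15743273, had 1108 FPKM in tg1, 1007 in tg2, 789 in hom and 762 in CAG. hom was lowest at ATPsyn-gamma and CAG at sun, so sun stood 1.52-fold above ATPsyn-gamma in tg1, 1.32-fold in tg2, 1.28-fold in hom and 1.13-fold in CAG. Of the peripheral stalk, which holds the catalytic head still, ATPsyn-b, at 3L:9723077-9753496, had 858 FPKM in tg1, 973 in tg2, 753 in hom and 794 in CAG. ATPsyn-d, at 3R:14920720-14921792, had 569 FPKM in tg1, 559 in tg2, 578 in hom and 531 in CAG, and it was the only one of the 20 members that was highest in hom. ATPsyn-Cf6, at 3R:19180975-19181782, had 512 FPKM in tg1, 471 in tg2, 476 in hom and 473 in CAG, and it was the only one of the 20 that was lowest in tg2. ATPsyn-b was thus higher in both tg libraries than in hom and CAG, whereas ATPsyn-d and ATPsyn-Cf6 varied little.

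The members were set between each pair of lines, with a 2-fold difference and a difference of 0.5 on the log2 scale (1.41-fold) as thresholds. No member reached 2-fold in any of the 6 pairs. Over all tested loci 2-fold differences in either direction made up 3.31% for tg1 against tg2, 3.54% for tg1 against hom, 6.48% for tg2 against hom, 3.55% for tg1 against CAG, 4.59% for tg2 against CAG and 5.30% for hom against CAG. A difference of 0.5 was reached by Cyt-c-p in tg2 against hom, where 24.4% of all tested loci reached it, and by sun in tg1 against CAG, where 12.9% did. In the other pairs 0 members reached 0.5, against 14.7% of all tested loci for tg1 against tg2, 14.3% for tg1 against hom, 17.4% for tg2 against CAG and 16.0% for hom against CAG. The coefficient of variation over the 4 lines had a median of 8.87% among the members, with 18.3% at sun as the highest value. The median was 13.7% among loci of at least 100 FPKM and 14.6% among all tested loci.

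Small differences pointed mostly one way in the comparisons of a tg line with hom or CAG. The pairs share libraries, so they are not independent of each other. In tg2 against hom 18 of 20 members were higher in tg2, against 51.9% of all tested loci, with a median of 0.25 and a range from −0.05 at ATPsyn-d to 0.57 at Cyt-c-p. The median over all tested loci in this pair was 0.02. Over loci of at least 100 FPKM it was 0.01, with 50.2% higher in tg2. In tg1 against hom 18 of 20 were higher in tg1, against 48.6% of all loci, with a median of 0.17 beside −0.01 over all loci. The range there ran from −0.06 at ND23 to 0.49 at Cyt-c-p, with sun at 0.49. Loci of at least 100 FPKM had a median of 0.03 for tg1 against hom, with 53.4% higher in tg1. Cyt-c-p, the locus where hom stood apart, was therefore the top member of both comparisons with hom.

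Against CAG the same members were not at the top. In tg2 against CAG 19 of 20 members were higher in tg2, against 48.3% of all tested loci, with a median of 0.18 beside −0.01 over all loci. The values ran from −0.01 at ATPsyn-Cf6 to 0.40 at sun, with Cyt-c-d at 0.40. Loci of at least 100 FPKM had a median of −0.01 for tg2 against CAG, with 47.5% higher in tg2. In tg1 against CAG 18 of 20 were higher in tg1, against 44.5% of all loci, with a median of 0.12 beside −0.03. This median was 0.0588 when the libraries were scaled by their FPKM sum over single-name loci and 0.18 when they were centred on the median of the tested loci. The range ran from −0.06 at ND75 to 0.54 at sun. Loci of at least 100 FPKM had a median of 0.03 for tg1 against CAG, with 54.5% higher in tg1. sun thus led both comparisons with CAG, and Cyt-c-p differed from CAG by 0.08 in tg1 and 0.15 in tg2.

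As deposited, the members' medians were smallest in size for tg1 against tg2 and for hom against CAG. Even so, tg2 was the highest library at 14 of the 20 members and tg1 at 5. Among all tested loci the shares were 31.6% for tg2 and 15.4% for tg1. Loci of at least 100 FPKM had a median of 0.04 for tg1 against tg2, with 55.3% higher in tg1. In tg1 against tg2 only 6 of 20 members were higher in tg1, against 44.8% of all tested loci, with a median of −0.07 beside −0.04 over all loci and a range from −0.21 at ND75 to 0.21 at RFeSP. In hom against CAG 10 of 20 were higher in hom, against 47.9% of all loci, with a median of −0.01 beside −0.01. Under other scalings of the libraries the median ran from −0.16 to −0.0031 for tg1 against tg2 and from −0.06 to 0.03 for hom against CAG, where its sign thus depended on the scaling. All 3 complex IV members were higher in hom than in CAG, but of 5 further complex IV subunits only 1 was. Of the ATP synthase members, sun, ATPsyn-Cf6 and ATPsyn-d were higher in hom, by 0.05, 0.01 and 0.12, and ATPsyn-beta, blw, ATPsyn-gamma and ATPsyn-b were lower in hom, with differences of −0.18, −0.21, −0.12 and −0.08. Of all 20 members hom was the lowest library at 10, CAG at 9 and tg2 at 1. Among all tested loci hom was the lowest at 29.5%, CAG at 19.1%, tg2 at 28.1% and tg1 at 23.4%.

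**Figure D2:**
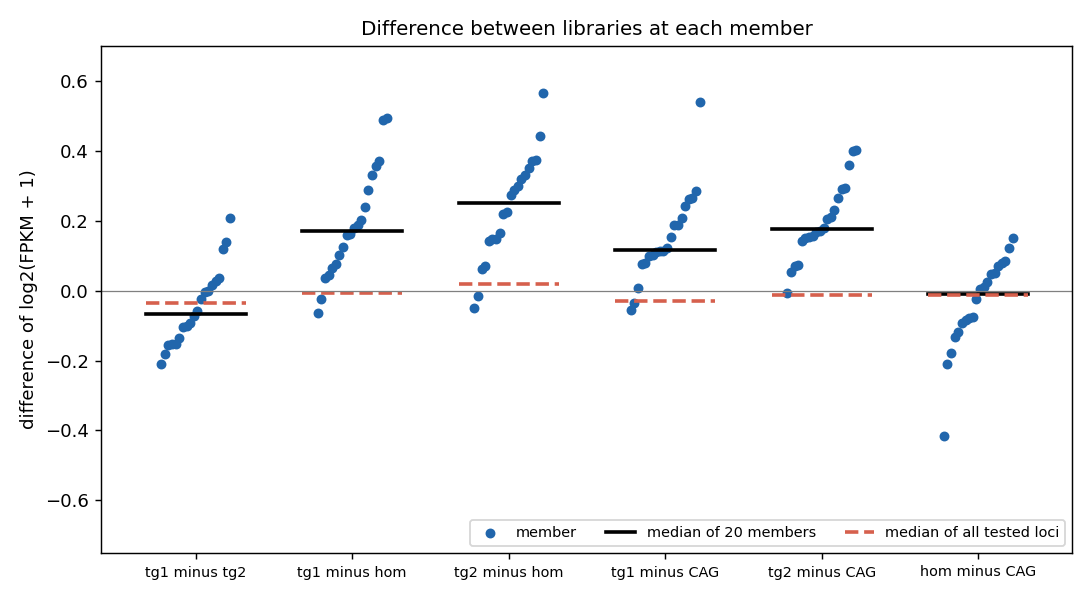
Difference of log2(FPKM + 1) at each of the 20 members (points, sorted within a pair) for the 6 pairs of libraries, with the median of the members (solid line) and of all tested loci (dashed line). The members lie mostly above 0 in the 4 comparisons of a tg line with hom or CAG, and on both sides of 0 for tg1 minus tg2 and hom minus CAG.

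Many other nuclear subunits carry older or numbered names in the files and were found through the gene table of a Release 6 annotation. There were 61 such loci. They comprised 42 main forms, 18 duplicate forms whose current symbol ends in L and the assembly factor gene CG14898 (Sdhaf3). Another 9 subunit genes, among them SdhD, COX5B and ATPsynC, lay in loci with several joined names and were not used. At 30 of the 42 main forms tg1 and tg2 both lay above both hom and CAG, beside the 18.3% of all tested loci. By complex the counts were 17 of 27 for complex I and 4 of 5 for each of complex IV and ATP synthase. All 5 complex III loci had this order. The median over the 42 was 0.16 for tg1 against hom, 0.19 for tg2 against hom, 0.13 for tg1 against CAG and 0.15 for tg2 against CAG.

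Single subunits of the main forms illustrate the range. CG32230 (ND-MLRQ), an accessory subunit of complex I, was the most abundant, with 2176 FPKM in tg1, 2892 in tg2, 2255 in hom and 2311 in CAG, and only tg2 stood apart from the rest. CG14482 (UQCR-6.4), a small subunit of complex III, had 1919.8 FPKM in tg1, 1876 in tg2, 1481 in hom and 1560.0 in CAG, and CG3560 (UQCR-14) of the same complex had 1217 FPKM in tg1, 1338 in tg2, 968 in hom and 1028 in CAG. Both complex III subunits separated the tg libraries from hom and CAG. ATPsynG, of the membrane part of ATP synthase, had 781 FPKM in tg1, 1021 in tg2, 674 in hom and 778 in CAG, and its difference of 0.60 between tg2 and hom was the most positive of the 42. CG8680 (ND-13A), a complex I subunit, had 374 FPKM in tg1, 439.6 in tg2, 307 in hom and 296 in CAG. CG9603 (COX7A), a complex IV subunit, went the other way in tg2, with 155.9 FPKM in tg1, 116 in tg2, 147 in hom and 152 in CAG. CG18624 (ND-MNLL), of complex I, was highest in hom, with 430.5 FPKM in tg1, 445 in tg2, 465 in hom and 439 in CAG. None of the 42 reached a 2-fold difference in any pair.

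The citrate cycle, which makes the NADH and succinate that feed the chain, showed the same order of libraries. At 8 of the 9 listed loci both tg libraries were above both hom and CAG, against 18.3% of all tested loci. The list is short, and its 9 loci were those found with 21 names, older symbols included. kdn, the citrate synthase, had 696 FPKM in tg1, 759 in tg2, 482 in hom and 611 in CAG, which made it the most abundant of the list and the locus with the most positive difference between tg2 and hom, 0.66. Idh3a, a subunit of isocitrate dehydrogenase, had 519 FPKM in tg1, 536 in tg2, 419.9 in hom and 489.9 in CAG, and Nc73EF, of the oxoglutarate dehydrogenase, had 208 FPKM in tg1, 217 in tg2, 161 in hom and 207 in CAG. hom was the lowest library at these 3 loci and at 7 of the 9, against 29.5% of all tested loci. The exception was Sucb, the GDP-forming subunit of succinyl-CoA synthetase, which was highest in hom with 20.6 FPKM in tg1, 17.7 in tg2, 28.1 in hom and 21.1 in CAG.

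The order was not seen at the listed genes that maintain and express the mitochondrial genome. Of 11 loci on that list, 0 had both tg libraries above both hom and CAG, against 18.3% of all tested loci. At 2 of the 11 both tg libraries were below, against 20.4% of all tested loci. mtTFB1, a mitochondrial rRNA methyltransferase and the most abundant of the list, had 68.2 FPKM in tg1, 62.5 in tg2, 76.0 in hom and 65.6 in CAG. TFAM, which packs mitochondrial DNA, had 21.4 FPKM in tg1, 24.5 in tg2, 23.8 in hom and 27.4 in CAG, and mtRNApol, the mitochondrial RNA polymerase, had 10.1 FPKM in tg1, 8.90 in tg2, 9.39 in hom and 9.53 in CAG. tg1 was the lowest library at TFAM and the highest at mtRNApol. Of 6 assembly factors, which insert cofactors or help build the complexes, 0 had both tg libraries above both others. Lists of 11 and 6 loci are too short to be set apart from the shares over all tested loci. CG31648 (Cox11), which helps deliver copper to cytochrome oxidase, was lowest in tg2 with 20.2 FPKM in tg1, 11.6 in tg2, 23.2 in hom and 19.0 in CAG. CG5037 (Cox10), which makes haem O, the precursor of the haem A of cytochrome oxidase, was lowest in hom with 58.0 FPKM in tg1, 53.6 in tg2, 44.1 in hom and 67.2 in CAG.

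**Figure D3:**
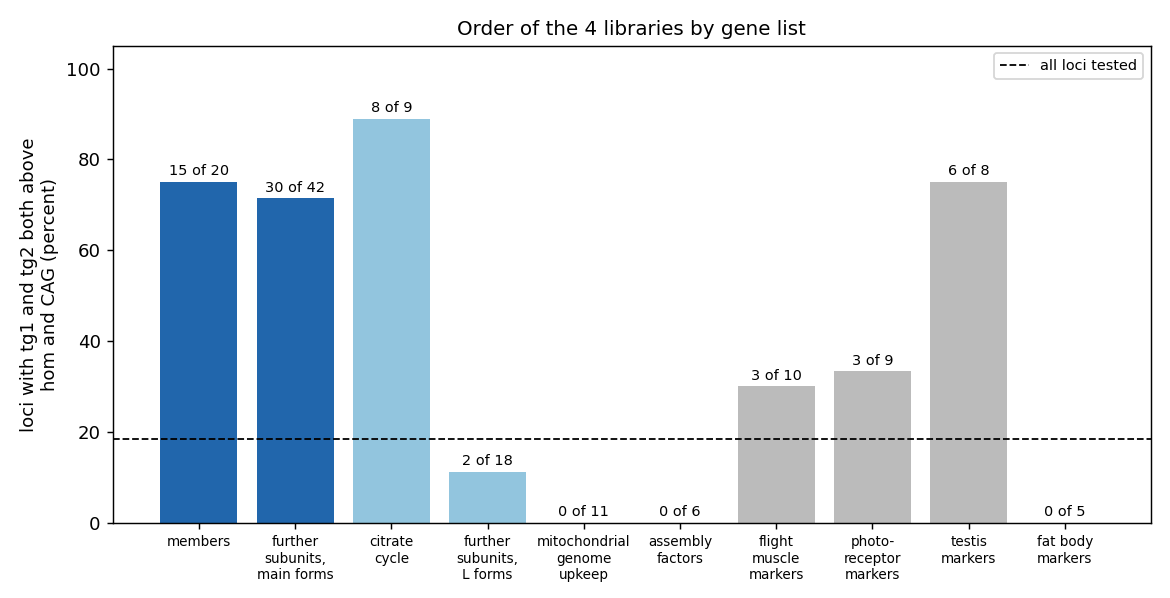
Share of loci at which tg1 and tg2 both lay above both hom and CAG, in percent, for each gene list, with counts above the bars and the share among all loci tested as a dashed line. The 20 members, the 42 further main forms, the citrate cycle and the testis markers lie well above the line at 18.3%, and the L forms, the genome upkeep genes and the assembly factors lie below it.

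Duplicate subunits with symbols ending in L were looked at apart from the main forms. Many of these copies are known in Drosophila for expression mainly in testis. This split by symbol was made after the values had been seen. Both tg libraries were above both hom and CAG at 2 of the 18 L forms, a share of 11.1% beside the 18.3% of all tested loci. tg2 was the highest library at 12 of the 18, against 31.6% of all tested loci, and tg1 was the lowest at 10, against 23.4%. CG31644 (COX6CL), a duplicate of cype, had 34.8 FPKM in tg1, 66.1 in tg2, 37.8 in hom and 36.7 in CAG, a difference of −0.91 between tg1 and tg2. CG30354 (UQCR-11L), a complex III duplicate, had 19.9 FPKM in tg1, 37.0 in tg2, 24.5 in hom and 25.3 in CAG, and CG10396 (COX4L), the most abundant L form, had 90.8 FPKM in tg1, 126 in tg2, 96.9 in hom and 86.3 in CAG. At these 3 duplicates tg2 was alone above the other libraries. cype itself, the main form, had similar levels in tg1 and tg2, which differed by −0.09.

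By their medians the L forms were higher than hom in tg2 and not in tg1. The median over the 18 was 0.22 for tg2 against hom, −0.09 for tg1 against hom and −0.22 for tg1 against tg2. The 42 main forms had a median of 0.00 for tg1 against tg2. Not all L forms followed tg2. CG8102 (ND-51L2) was highest in hom with 7.78 FPKM in tg1, 8.43 in tg2, 11.5 in hom and 7.49 in CAG, and CG6485 (ND-24L) likewise with 24.9 FPKM in tg1, 25.0 in tg2, 32.2 in hom and 26.3 in CAG. Genes of sperm differentiation were highest in tg2 at all 8 loci of the testis list, against 31.6% of all tested loci. Both tg libraries were above both hom and CAG at 6 of the 8, a share of 75% that the 20 members also had. The 8 loci had a median of 0.57 for tg2 against hom, 0.13 for tg1 against hom and −0.41 for tg1 against tg2. Their summed level was 2182 FPKM in tg1, 2824 in tg2, 1868 in hom and 1898 in CAG. Cyt-c-d, the testis form of cytochrome c, differed by −0.16 between tg1 and tg2. The part of testis RNA in the values of the L forms and of Cyt-c-d was not tested.

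**Figure D4:**
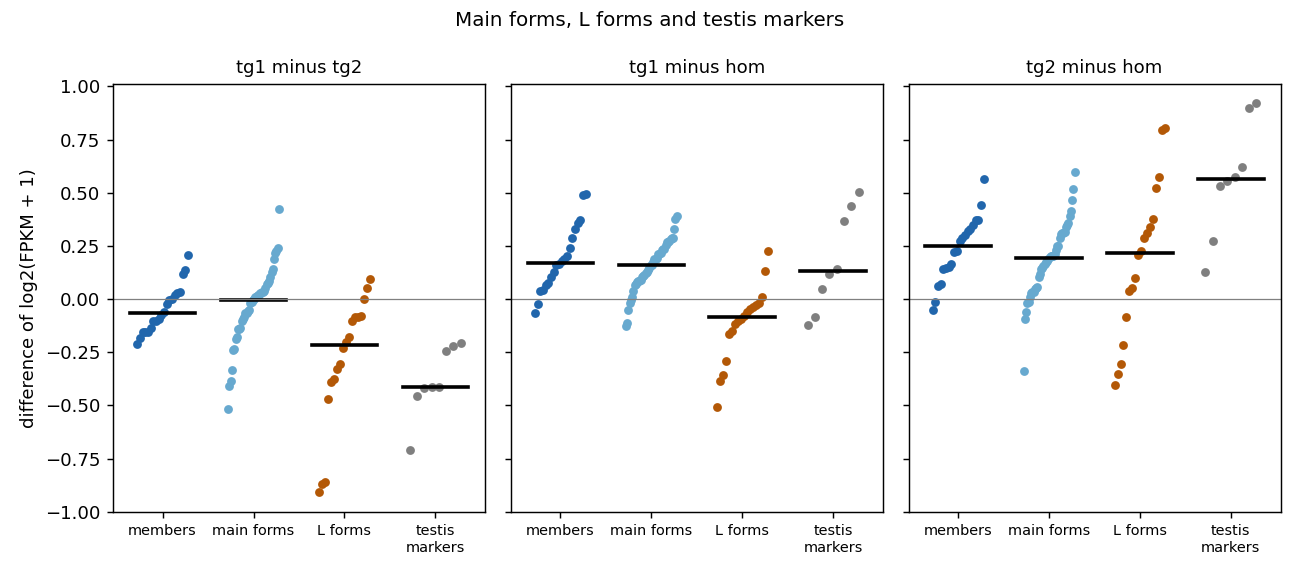
Difference of log2(FPKM + 1) for tg1 minus tg2, tg1 minus hom and tg2 minus hom at the 20 members, the 42 further main forms, the 18 L forms and the 8 testis markers, with 1 point per locus and a bar at the median. The L forms and the testis markers lie mostly below 0 for tg1 minus tg2, and the members and main forms lie mostly above 0 in both comparisons with hom.

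Markers of tissues that could differ between the animals were read beside these results. Of 10 flight muscle loci, 3 had both tg libraries above both hom and CAG, against 18.3% of all tested loci. At 6 of the 10 hom was the lowest library, against 29.5% of all tested loci. The summed level of the 10 was 20311 FPKM in tg1, 19349 in tg2, 16984 in hom and 19217 in CAG. Their median difference was 0.25 for tg1 against hom, 0.12 for tg2 against hom, −0.04 for tg1 against CAG and −0.06 for tg2 against CAG. In each tg line 4 of the 10 markers were higher than CAG, near the shares of all tested loci, 44.5% for tg1 and 48.3% for tg2. Act88F was among these 4, higher by 0.15 in tg1 and 0.17 in tg2. Mhc, the muscle myosin heavy chain, had 2336 FPKM in tg1, 2638 in tg2, 2010.5 in hom and 2549 in CAG, and TpnC4, a flight muscle troponin C, had 1985 FPKM in tg1, 2084 in tg2, 1141 in hom and 1346 in CAG. The titin-related muscle gene bt was listed at 0 in hom and CAG with 496 FPKM in tg1 and 504 in tg2, and it was left out of these counts because a 0 in such files can be a failed estimate. Photoreceptor markers were lowest in hom at 7 of 9 loci, against 29.5% of all tested loci. The sum of these markers, most of it from ninaE, was 1135 FPKM in tg1, 1305 in tg2, 979 in hom and 1240.2 in CAG. Photoreceptor medians were 0.30 for tg1 against hom, 0.52 for tg2 against hom, −0.14 for tg1 against CAG and 0.12 for tg2 against CAG. At 1 photoreceptor locus the difference reached 2.93 for tg2 against hom, where 6.48% of all tested loci passed 2-fold. For hom against CAG 1 locus reached −3.18, where 5.30% of all tested loci passed 2-fold. Fat body markers lay the other way, with 4 of 5 loci highest in hom, against 27.8% of all tested loci. The fat body sums were 2692 FPKM in tg1, 2458 in tg2, 8547 in hom and 3145 in CAG. Fbp1, a hexamerin receptor, had 761 FPKM in tg1, 660.1 in tg2, 2460.2 in hom and 914 in CAG. The part of these tissues in the members' differences was not tested.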

How the data were processed

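RNA was measured in pharate adults of 4 lines, each with 1 library. Per the labels' protocols, total RNA was depleted of ribosomal RNA, treated with DNase, made into libraries with a TruSeq kit and sequenced in paired ends on a HiSeq machine. Tools named in the submitters' processing notes, with no version, are TopHat, Cufflinks, SAMtools and bedtools, and the genome build is dm3. The deposited values are FPKM per locus, computed by the authors, as the file headers state. The sources used here do not give the annotation, the use of strand, the handling of multi-mapping reads or the depth. Depletion in place of poly(A) selection keeps RNAs without a tail, and reads shared by overlapping or duplicate genes can be split between loci in a way not stated.

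Members were loci with a single name that matched subunit symbols (ND with a digit, Sdh, RFeSP, ox, Cyt-c, CoIV, CoV, cype, levy, ATPsyn, blw, sun and names starting with mt:). The members and lists were chosen with earlier results of these data known. Every member is described, and of the other lists the most abundant locus, the extremes and examples chosen after their values were seen. Of the 12066 single names, 11838 matched a symbol of a Release 6 gene table or a synonym held by 1 gene only. A start coordinate of the files was raised by 1. Of 9152 named loci compared, the end minus the start equalled the annotated gene length at 964 and fell 1 short of it at 98. At most of the 9152 loci neither held, so the basis for this step is limited.

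Pairs of libraries were compared by log2(FPKM + 1), a scale that understates changes of low loci, at loci averaging 1 FPKM or more. Thresholds were 1 and 0.5 on this log2 scale, computed here from the deposited FPKM. With 1 library per line, no p-value, error or count test was computed. Loci of the short lists that were listed at 0 in a library got no difference. The calculation was tested on simulated data, with known large changes set into otherwise equal libraries without noise. Such a test checks the arithmetic only, and not small differences between single libraries. Python 3.11.15, pandas 2.3.3 and numpy 2.4.6 were used. Results were recomputed with pseudocounts of 0.1 and 5, without the filter or with one of 5 FPKM, with 4 other scalings of the libraries, and without loci listed at 0.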

Additional observations from a re-analysis of the deposited data

How the results depend on the processing

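With 1 library per line, the limits are those of 4 single libraries: the spread between animals or preparations of a line is unknown, and the members' differences of about 0.1 to 0.3 cannot be set against it. No paired analysis was possible because each line has 1 library and no test was run. The planned results on mitochondrially encoded loci gave no values, since 0 such loci were among those measured. A median was taken as moved where it left the 95% binomial (order statistic) interval of the main median over the 20 members, which are not replicates. By that measure 51 of 54 recomputed medians stayed, but many of the settings could not move them. Every member averaged at least 100 FPKM and none was listed at 0. Changing the filter or leaving out loci listed at 0 therefore returned the same medians, and the other pseudocounts changed them little. Only the 4 other scalings were a check of the medians, and all 3 that moved came from them. All 54 recomputed counts of members past 2-fold stayed at 0. These counts were hardly tested, because the largest difference, 0.57 at Cyt-c-p in tg2 against hom, lay far from the threshold of 1. The medians that moved concerned tg1. Scaling by the FPKM sum over single-name loci gave −0.16 for tg1 against tg2 and 0.0588 for tg1 against CAG, and scaling by the sum over protein-coding loci, chosen after seeing the data, gave 0.0834 for tg1 against CAG. These scalings lower tg1 relative to CAG by 0.06 and 0.03 on the log2 scale. A threshold of 0.5 in place of 1 gave 1 member for tg2 against hom and 1 for tg1 against CAG. The count of 15 members with both tg libraries above both hom and CAG, whose alternatives were chosen after seeing the data, was 17 with centring on the median, 15 with trimmed mean scaling and 16 with each sum scaling. The share among all tested loci then ran between 16.8% and 21.2%. Without hom the count was 17, with 30% of all tested loci, and without CAG it was 17, with 36.9%.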
